A study of Mus musculus with 8 samples.

Results

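The differential m6A peaks between Emg1 knockdown and control N2a cells were described here, taking every peak of the deposited list: 2114 of 2114 peaks, which carried the names of 1912 genes. A peak is a stretch of RNA that was enriched after precipitation by an antibody that binds N6-methyladenosine (m6A), and its change is the log2 difference between the conditions that the authors deposited. N2a is a mouse neuroblastoma line. Small interfering RNA targeting Emg1 or a control siRNA was delivered with the same lipid reagent, and the cells were collected after 48 h. Poly(A) RNA was used for m6A immunoprecipitation (IP) and for input, with 2 libraries in each of the 4 groups: knockdown IP, control IP, knockdown input and control input. The labels do not state that replicate libraries were grown as separate cultures, and the authors' p-values may therefore measure technical spread. A knockdown lowers a transcript and does not remove it.

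m6A is written on nascent mRNA by a complex built around Mettl3, Mettl14 and Wtap, mostly at adenosines in short motifs such as GGAC and often near stop codons and in long exons. YTH-domain proteins and other readers bind the mark and influence splicing, translation and decay, and Fto and Alkbh5 can remove it. Antibodies against m6A also bind m6Am, a related adenosine next to the cap that Pcif1 methylates, so m6A and m6Am cannot be told apart in a peak at the first bases of a transcript. Emg1 is a methyltransferase of 18S ribosomal RNA.

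The list held 1123 peaks with a negative change and 991 with a positive change. The numerator of the change is not stated in the table. The sign is therefore given as deposited, and neither sign is read as gain or loss after knockdown. Only peaks that passed the authors' test are in the list, with a false discovery rate (FDR) of at most 0.0282, and no value per library and no error of a change was available. The share with a negative change was 53.1% (51 to 55.3%, 95% exact Clopper-Pearson interval). It was 49.8% among the peaks with an enrichment of at least 2, so the majority of negative changes was not kept there. Some peaks were deposited under several names: 36 peaks shared bases with a peak of another gene name on the same strand, at 12 places. With each such place counted once, 1101 of 2090 peaks had a negative change (52.7%). Intervals cover counting only, peaks are not independent of each other, and no difference between shares of peaks was tested. Emg1 itself carried 0 peaks of the list. In the authors' deposited table of input RNA, the Emg1 log2 fold change was -1.73 ± 0.11 (SE, adjusted p = 3.37e-54, DESeq2), or 30.2% of the control level. Of 16 neuroblastoma and sympathoadrenal markers 14 were measured, and 12 had a mean normalized count of at least 100. The summed mean of the 14 was 100624, against 469 to 1822 for each of the marker lists of fibroblasts, leukocytes, glia, and endothelium and epithelium. The neurofilament gene Nefm was near 0 (mean 1.32), while the noradrenaline-synthesis gene Dbh had a mean of 42.6.

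The peaks at transcript starts stood out by their sign. The 5′ edge of each peak was compared with the RefSeq transcript starts of its gene, which could be done for 1688 peaks (891 negative). In 262 peaks on 262 genes the edge lay within 50 bases of a start, and 240 of these had a negative change (91.6%, 87.6 to 94.7%). Among the other 1426 peaks, 651 had a negative change (45.7%, 43 to 48.3%). These intervals cover counting only, and the difference was not tested. The settings for start peaks were chosen after seeing the data. In 180 of the 262 peaks the edge was exactly the first base of a RefSeq transcript, and in 30 it lay 30 bases inside. Many peak lengths were also close to multiples of 30 bases. An edge may therefore be a step of the peak caller, which is not given, and need not be the base where enrichment begins. The first 50 bases of the transcripts under some of these peaks are shown to let the start context be read. The first 6 belong to the lowest changes among start peaks of a single exon piece, and the last 4 to the highest changes among start peaks. Sequences are from RefSeq (GRCm38, the assembly of mm10), 5′ to 3′ on the transcribed strand, with the m6A core motif GGAC in capitals.
Ctnnb1: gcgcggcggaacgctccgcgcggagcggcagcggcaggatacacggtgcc
Ppp2ca: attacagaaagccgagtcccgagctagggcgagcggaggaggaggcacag
Phox2a: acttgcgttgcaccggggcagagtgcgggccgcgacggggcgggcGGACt
Mgat2: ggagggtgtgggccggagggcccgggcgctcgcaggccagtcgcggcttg
Chac1: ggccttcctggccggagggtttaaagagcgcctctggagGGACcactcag
Nudc: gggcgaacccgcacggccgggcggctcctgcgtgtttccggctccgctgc
D6Wsu163e: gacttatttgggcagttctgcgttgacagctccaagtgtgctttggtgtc
Marf1: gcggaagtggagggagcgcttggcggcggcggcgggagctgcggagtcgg
Gskip: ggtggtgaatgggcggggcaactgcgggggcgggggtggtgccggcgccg
Tefm: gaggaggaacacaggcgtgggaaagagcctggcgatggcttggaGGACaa

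These windows lie at chr9:120933400-120933449 (plus strand), chr11:52098824-52098873 (plus strand), chr7:101818313-101818362 (plus strand), chr12:69184158-69184207 (plus strand), chr2:119351242-119351291 (plus strand) and chr4:133545978-133546027 (minus strand) for the negative-change peaks. Those of the positive-change peaks lie at chr6:126939966-126940015 (plus strand), chr16:14159225-14159274 (minus strand), chr12:105685352-105685401 (plus strand) and chr11:80142104-80142153 (minus strand). Each is the first transcribed part of its gene, and most of the windows, though not that of D6Wsu163e, are rich in G and C. GGAC was present in 2 of the 6 negative-change windows, those of Phox2a and Chac1, and in 1 of the 4 positive-change windows, that of Tefm. Over all start peaks, 50 of 240 negative-change windows held GGAC (20.8%, 15.9 to 26.5%), as did 5 of 22 positive-change windows. The share was 18.8% over 32817 windows of all RefSeq starts, and 19% over 1928 windows of genes with a peak. The letters GGAC were therefore about as frequent in the first 50 bases of these transcripts as at any start, and a peak need not cover all of its window. The longer GGACT, which contains GGAC, was found in 5.42% against 5.76% of all windows. At least 1 of 4 cores, namely GGAC and the variants with A for G in the first place, the second place or both, was found in 49.2%, against 50.8% of all windows and 40.4% of those of genes with a peak. The first annotated base was A in 27.9% of negative-change windows, against 34.4% of all windows and 26.6% of those of genes with a peak. The mean G and C content was 64.9%, close to the 66.1% of genes with a peak and above the 56.7% of all windows. Only the transcribed strand was searched for these shares, and a match is a description of the letters.

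The lowest change of the whole list was at such a start. Ctnnb1, which encodes beta-catenin, the effector of canonical Wnt signalling, had a change of -6.26 in the authors' deposited table, in a single piece of 151 bases that begins 30 bases after the start. Ppp2ca, the catalytic subunit of protein phosphatase 2A, had -3.91, with the edge on the first base. Phox2a, a transcription factor of noradrenergic neurons, had -3.78 over 180 bases. Mgat2, an enzyme of N-glycan processing, had -3.73, and Chac1, an enzyme that breaks down glutathione, had -3.44. Nudc, a dynein-associated chaperone, had -3.34 over 61 bases, and the heat shock protein gene Hsph1 had -2.94. All 7 peaks were weakly to moderately enriched, between 1.79 for Nudc and 5.13 for Ctnnb1. The input RNA of these genes had not moved in 1 direction. In the authors' deposited table it was 0.59 ± 0.07 (SE) for Phox2a (adjusted p = 2.16e-14, DESeq2) and -0.82 ± 0.10 for Chac1 (adjusted p = 7.8e-15, DESeq2). It was 0.11 ± 0.09 for Mgat2 (adjusted p = 0.327, DESeq2).

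The 22 start peaks with a positive change ran from 0.29 to 1.32, and the 240 with a negative change from -6.26 to -0.204. The highest was on D6Wsu163e, at 1.32. Marf1, a regulator of oocyte RNA, had 1.27, Gskip, a binding partner of Gsk3 and protein kinase A, had 1.14, and Tefm, an elongation factor of mitochondrial transcription, had 1.05. Positive-change start peaks were longer, with a median of 764 bases of RNA against 330, and more enriched, with a median enrichment of 9.86 against 3.56. Their genes had a median input mean of 730 against 2738. Start peaks of either sign thus differed in length, enrichment and abundance together, and the part of each in the sign was not tested.

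The share of negative changes fell with distance from the start. It was 82.6% over 50 and up to 250 bases (109 of 132) and 76% up to 1000 bases (73 of 96). It was 46.6% up to 5000 bases (76 of 163), 38.2% up to 20000 bases and 37.2% beyond. These distances are genomic and include introns, and 16 peaks that began more than 50 bases upstream are left out of them. Of the 54 peaks with a change of -2 or lower and a RefSeq start, 25 were start peaks, 11 lay over 50 and up to 250 bases, and 7 lay beyond 1000 bases. All 10 peaks with a change of 2 or higher and a RefSeq start lay beyond 1000 bases. Itgb1, the beta subunit of integrins, had the second lowest change, -5.86 in the authors' deposited table, at 90 bases from its start.

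**Figure D1:**
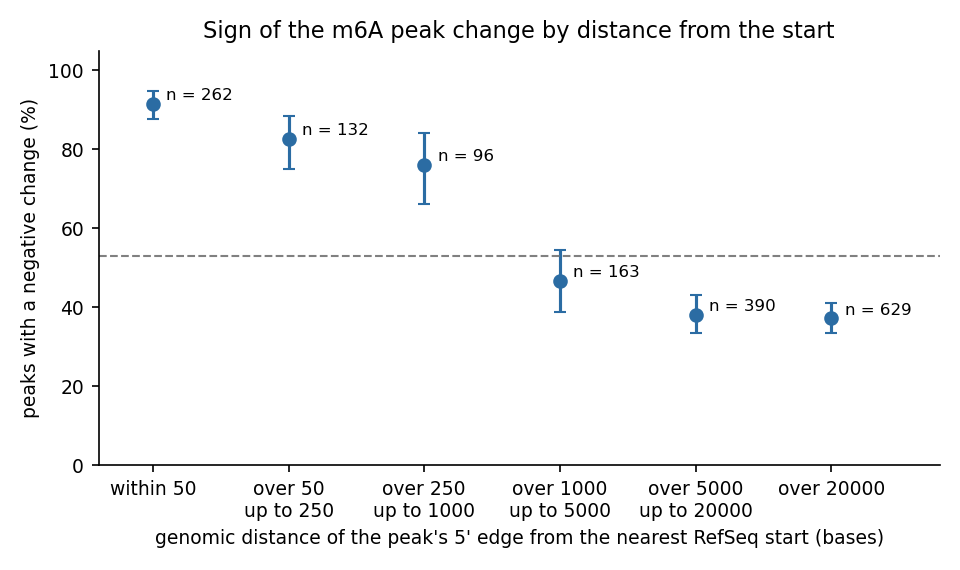
Share of peaks with a negative change (vertical axis, percent) by the genomic distance of the peak's 5′ edge from the nearest RefSeq start (horizontal axis, bases). Points are shares, bars are 95% exact intervals over peaks, n is the number of peaks, and the dashed line is the share over the whole list, 53.1%; the share goes from 91.6% at the start to 37.2% beyond 20000 bases.

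The excess of negative changes at starts was present at each level of enrichment and abundance. Split at enrichments of 3.42 and 10, which part the list into 3 equal groups, start peaks were 97.4%, 92.1% and 75% negative from low to high. The other peaks were 61.5%, 44.1% and 32.8%. Split at input means of 1400 and 3531, start peaks were 78.7%, 96.4% and 97.1% negative from low to high, and the other peaks 25.5%, 38.8% and 73.2%. Among start peaks of up to 300 bases of RNA 95 of 99 were negative, up to 600 bases 95 of 100, and above 600 bases 50 of 63. Negative changes were thus more frequent on abundant transcripts and in weakly enriched peaks in both classes, and the class at the start was higher throughout.

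**Figure D2:**
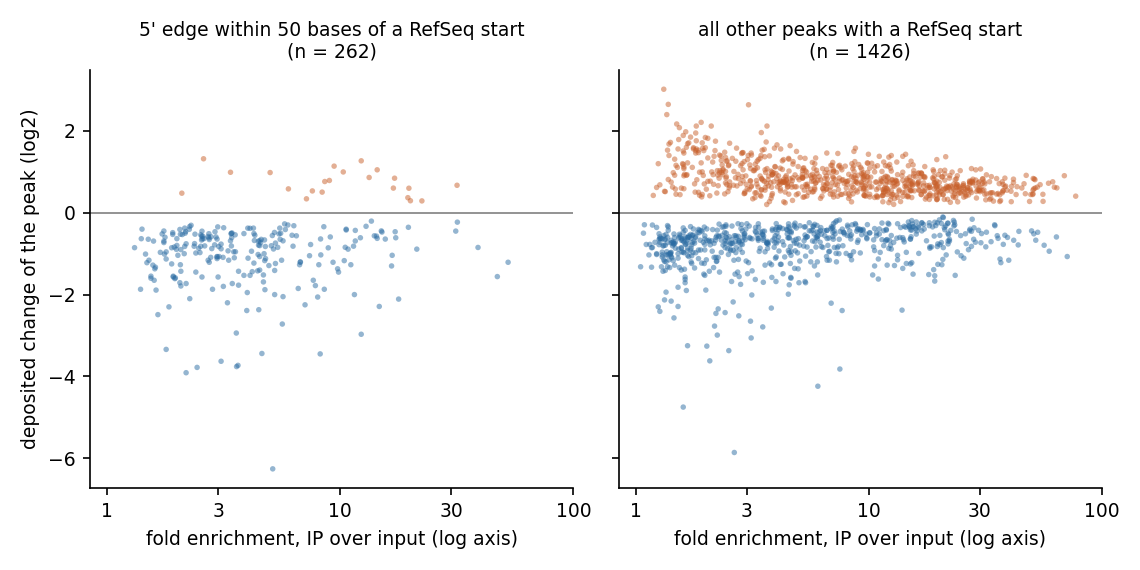
Deposited log2 change of each peak (vertical axis) against its fold enrichment of IP over input (horizontal log axis), for the 262 peaks at a RefSeq start (left) and the 1426 others (right). Each point is a peak, blue where the change is negative and orange where it is positive; at the start 240 points lie below 0 and 22 above.

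The same could be seen against the whole gene span, which was known for 2109 peaks. Of 1120 negative-change peaks, 401 had the 5′ edge within 500 bases of the start of the gene (35.8%, 33 to 38.7%), against 56 of 989 positive-change peaks (5.66%, 4.31 to 7.29%). At the end of the gene the signs were closer. The 3′ edge lay within 500 bases of the gene's end in 18.7% of negative-change peaks (16.4 to 21.1%) and in 22.8% of positive-change peaks (20.2 to 25.5%). Of 126 peaks that ended on the last base of the gene, 59 were negative and 67 positive. The result at the start rests on the edge of the peak: with the midpoint in its place the shares were 8.48% and 0.404%.

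The smallest p-values of the list were almost all on negative changes. The 10 smallest lay on abundant genes, with input means of 5942 to 30976, against a median of 2226 over all peaks. The part of abundance in the order of p was not tested. In order of p, the first 50 peaks were all negative, as were 99 of the first 100 and 429 of the first 500. The first positive change, on Ddx5, stood at rank 70. Of the 10 peaks with the smallest p, 9 ran over at least 2 exon pieces. Ngfrap1 and Bex2, relatives on the X chromosome that encode small neuronal adaptor proteins, had changes of -1.45 and -1.14 in the authors' deposited table. Each peak had 3 exon pieces and began 88 and 87 bases into the gene. Basp1, a membrane protein of growth cones, had -2.29 over 1078 bases at an enrichment of 14.7. Stmn1, a microtubule destabiliser of growing neurites, had -1.07 over 5 exon pieces. Hnrnpm, a splicing regulator, had -1.78, and Calm2, which encodes calmodulin, had -0.963, both with the edge on the first base of the gene and 6 exon pieces. The peak on the ribosomal protein gene Rpl41 had an enrichment of 1.05, the lowest of the list, and a change of -1.32. A very small p was therefore also given to a peak that was hardly enriched over input.

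Of the 10 positive changes with the smallest p, none began within 50 bases of the start of its gene. Ddx5, an RNA helicase, had 0.587 at 6950 bases from the gene start. Kdm1a, a histone H3 lysine demethylase, had 1.01 in a peak of 270 bases that ended on the gene's last base. Srebf2, the transcription factor of cholesterol synthesis, had 1.11 at an enrichment of 1.75. The imprinted noncoding gene Peg13 had 0.783 over 3499 bases at an enrichment of 40.9, beginning 269 bases from the gene start. Hilpda, a lipid droplet protein induced by hypoxia, had 1.14, and Tigar, a regulator of glycolysis, had 1.4 in the authors' deposited table. Tigar's input RNA had a change of 0.03 ± 0.12 (SE, adjusted p = 0.89, DESeq2) in the authors' deposited table and did not pass the test. The same held for Slc27a1, a fatty acid transporter, whose peak had 1.5. It also held for Smek2, a regulatory subunit of protein phosphatase 4, whose peak began 69 bases upstream of the annotated gene with -2.21. These 3 peaks were picked for an absolute input change under 0.1.

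Negative changes were more frequent in peaks with more exon pieces. The share with a negative change was 39.5% of 1069 peaks in 1 piece, 52.1% of 512 in 2 pieces, 73.5% of 264 in 3 pieces and 89.2% of 269 in 4 or more. Of the peaks in 4 or more pieces, 111 of 120 within 250 bases of a RefSeq start were negative, and 65 of 81 farther than that. Farther than 250 bases, 134 of 308 peaks in 2 pieces (43.5%) and 68 of 115 in 3 pieces (59.1%) were negative, against 265 of 774 in 1 piece (34.2%). Among start peaks 46 of 48 were negative in 1 piece, 56 of 64 in 2 pieces and 138 of 150 in 3 or more.

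The widest changes were negative. The negative changes had a median of -0.724, with quartiles of -1.09 and -0.515, and the positive ones a median of 0.751, with quartiles of 0.56 and 1. An absolute change of at least 2 was held by 66 negative and 14 positive peaks. Among peaks of at least the median enrichment, 5.525, Bcat1, an enzyme of branched-chain amino acid breakdown, had -2.97 at 30 bases from its start and an enrichment of 12.3. Jtb, a membrane protein, had -2.25 from its first base. On the positive side Mllt3, a subunit of the super elongation complex, had 1.58, and Vangl2, a planar cell polarity protein, had 1.38 in the authors' deposited table. The smallest changes that entered the list were -0.102 on Hjurp, a centromere chaperone, and 0.202 on C1qbp, a mitochondrial matrix protein. Both lay far from the start, at 11068 and 4822 bases.

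Genes with several peaks mostly had 1 sign. Of 183 genes with at least 2 peaks, 85 had only negative changes, 61 only positive ones and 37 both. Of the 16 genes with 3 or more peaks, 13 were negative throughout. They included Dst, a cytoskeletal linker, with 4 peaks from -1.41 to -0.672, and Map1b, a microtubule protein of axons, with -0.419, -0.399 and -0.425. Vgf, a secreted neuropeptide precursor, had -1.83, -0.669 and -1.5. The cohesin and condensin subunits Smc1a and Smc4 had -1.22, -0.738 and -0.563, and -2.12, -0.641 and -0.638. The centromere motor Cenpe had -1.09, -0.666 and -0.379. In each of these last 3 the most upstream peak had the lowest change in the authors' deposited table. That peak was also the least enriched of its gene, at 1.48 for Smc1a, 1.5 for Smc4 and 2.26 for Cenpe. The most upstream peak had the lowest change in 63 of the 85 genes with only negative changes. Of the 183 genes with several peaks 167 had only 2, so 1 of 2 peaks was then the lower. The part of enrichment and length in this order was not tested. Ahnak, a giant scaffold protein, was among the genes not negative throughout, with 5 positive peaks from 0.326 to 0.774. Dmxl2, a regulator of the vesicular proton pump, had 3 positive peaks, from 0.69 to 0.757.

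In the 37 genes with both signs, the negative change lay upstream in 33 (89.2%, 74.6 to 97%). A start peak was negative in 13 of these genes and positive in 1. Pcyt1a, the rate-limiting enzyme of phosphatidylcholine synthesis, had -2.72 from the first base and 2.17 at 41727 bases downstream. The downstream peak had an enrichment of only 1.5 over 90 bases. Chac1 had -3.44 at the first base and 0.372 at 1960 bases. The amino acid transporter Slc36a1 had -1.5 at 138 bases and 2.12 at 28413 bases. Mrfap1, a partner of a MORF4-type chromatin protein, had -2.1 and 0.532, and the proteasome activator Psme3 had -1.94 and 0.524. Both Psme3 peaks were hardly enriched over input, at 1.35 and 1.33. The 4 exceptions were Mdn1, Polk, Polr2a and Zfp617. Mdn1, an ATPase of 60S ribosome assembly, had 2.64 at 76386 bases and -0.741 at 99334 bases in the authors' deposited table. Polr2a, the largest subunit of RNA polymerase II, had 0.99 at its start and -0.786 downstream. Both peaks of such a gene share its 1 input value.

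**Figure D3:**
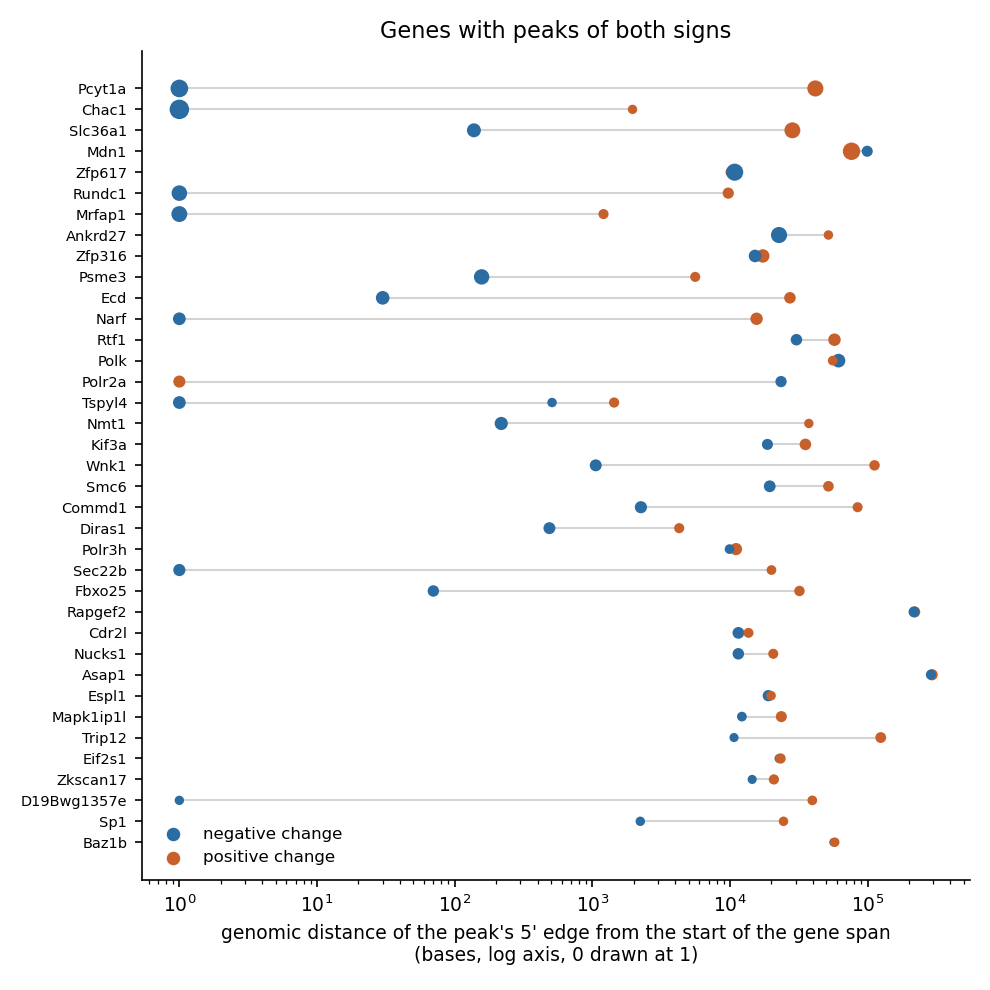
The 37 genes with peaks of both signs, ordered from the widest gap between their changes at the top. Each point is a peak, at the genomic distance of its 5′ edge from the start of the gene span (horizontal log axis, bases), blue for a negative and orange for a positive change, larger for a larger change; the blue point is the left one in 33 genes.

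The peaks were then set beside the input RNA of their genes. Of 12807 genes with an adjusted p in the authors' deposited table, 17.1% rose and 15.5% fell at an adjusted p under 0.05 (DESeq2). Negative-change peaks lay on genes that rose in 462 of 1109 cases (41.7%) and on genes that fell in 137 (12.4%). Positive-change peaks lay on genes that rose in 149 of 989 cases (15.1%) and on genes that fell in 244 (24.7%). The split was less uneven at the starts. Negative-change start peaks lay on rising genes in 28.9% and on falling genes in 17.6% of 239 cases, with a median input change of 0.06. The other negative-change peaks with a RefSeq start had 48.1% and 10.2% of 647 cases, with a median of 0.19. Start peaks were mostly negative whatever the input did: 69 of 70 on genes that rose, 42 of 49 on genes that fell, and 128 of 142 on genes that did not pass. The other peaks were negative in 71.5%, 26.6% and 36.6% of these classes. The sources used here do not state whether the authors corrected the change of a peak for input. The genes of negative-change peaks had a median input mean of 3435 and those of positive-change peaks 1497, and the part of abundance in these shares was not tested.

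**Figure D4:**
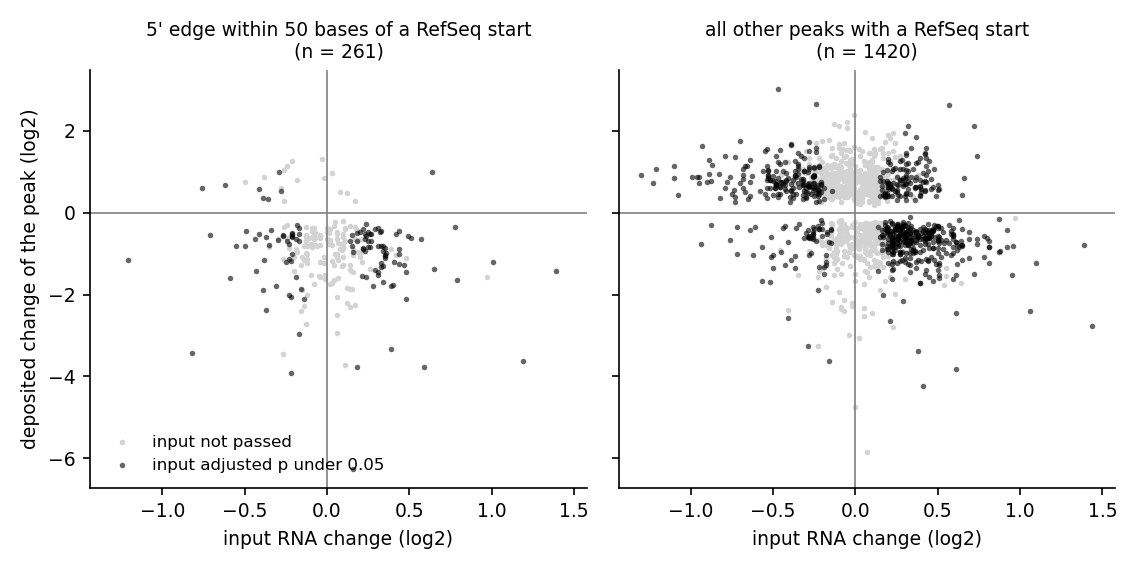
Deposited log2 change of each peak (vertical axis) against the log2 change of its gene's input RNA (horizontal axis), for peaks at a RefSeq start (left, 261 with an adjusted p) and all others (right, 1420). Black points are genes at an adjusted p under 0.05; at the start nearly all points lie below 0 on both sides of the vertical line, while at the right negative changes are more frequent where the input rose.

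Peaks by gene function were counted over 24 gene lists and read against all genes measured in input. Of 16279 measured genes, 6.25% carried a negative-change peak and 5.69% a positive-change peak. Among the 11134 genes at a mean of 100 or more, these were 8.95% and 8.29%. List members were abundant genes, with median means of 892 to 11962, so the second pair of values is the nearer comparison, and abundance and length were not otherwise matched. No test was made of any list.

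The few peaks on genes of the m6A machinery were all negative, and none was a start peak. Apart from Wtap, with an input mean of 2948, their genes had input means of 8456 to 24633. Among all peaks away from a start on genes with a mean above 3531, 73.2% were negative. Of 9 writer genes only Wtap, the subunit that anchors the methyltransferase core, had a peak, with -1.04 at an enrichment of 13.3, and its input change was 0.00 ± 0.07 (SE). The input RNA of 6 of the 9 writers rose and of 0 fell in the authors' deposited table, with values up to 0.52 ± 0.09 for Zc3h13 (adjusted p = 5.82e-07, DESeq2). Over all tested genes 17.1% rose and 15.5% fell. Other lists rose widely too, with 21 of 32 genes of 18S maturation and 18 of 27 chromatin remodelers. Of 13 readers 4 had a peak: Prrc2b at -0.713, Hnrnpa2b1 at -0.528, Prrc2a at -0.406 and Prrc2c at -0.331. The 5 YTH-domain readers measured had none. Of 5 eraser and cap enzymes only Alkbh5 had a peak, at -0.953 and an enrichment of 1.36. Pcif1 had none, and its input change was -0.01 ± 0.10.

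Ribosome assembly genes were counted for each subunit. Of 28 measured large subunit assembly factors 11 had a negative-change peak (39.3%) and 2 a positive-change one. Apart from Mdn1, examples were Ebna1bp2 at -0.868 and Wdr18 at -0.773. Of 32 genes of 18S maturation, the pathway in which Emg1 acts, 4 had a negative-change peak (12.5%) and 1 a positive-change one. Tsr1 had -1.25 from its first base, Bysl -1.23 at 239 bases and Dcaf13 -1.15 from the start of its gene, all 3 encoding factors of small subunit maturation, and Nol6 had 0.681 in the authors' deposited table. Among all genes at a mean of 100 or more, 8.95% had a negative-change and 8.29% a positive-change peak. The difference between the 2 lists was not tested. Of 74 cytosolic ribosomal protein genes, the most abundant list with a median mean of 11962, only Rpl4 had a peak, at -0.602. The input RNA of 44 of the 74 fell, against 15.5% of all tested genes. Rpl41, named above, was not a member of that list.

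Splicing and chromatin genes carried many peaks. Of 40 splicing factors, SR proteins and hnRNPs 14 had a negative-change peak (35%) and 3 a positive-change one (7.5%), and 5 of the 20 peaks were start peaks. Hnrnpab, an RNA-binding protein of mRNA transport, had -2.49 from its first base in the authors' deposited table. Hnrnpu, a nuclear scaffold protein, had -2.16, and U2af2, which binds the polypyrimidine tract, had -1.72. These 3 peaks were weakly enriched, at 1.65, 1.42 and 2.02. Across the 3 chromatin lists, 28 of 92 genes (30.4%) had a negative-change and 15 (16.3%) a positive-change peak. The negative ones included Nsd1, a histone H3 lysine 36 methyltransferase, at -1.51, the remodeler Chd4 at -1.34 and Kmt2d, a histone H3 lysine 4 methyltransferase, at -1.08. This Chd4 peak had an enrichment of only 1.4. Among the positive ones were the demethylases Kdm5b at 1.39 and Kdm4b at 1.33, and Kmt2a at 1.26. These peaks were rarely at starts, with 1 start peak among 52 in the 3 lists. Both shares were above the 8.95% and 8.29% of genes at a mean of 100 or more. Over the 638 measured genes of all lists, which include these, the shares were 16.5% and 9.25%. The 3 lists had median input means of 2716 to 4667, and the part of abundance in their shares was not tested.

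The few peaks on ubiquitin-specific proteases and on cholesterol genes were more often positive than negative. Of 37 proteases 6 had a positive-change peak (16.2%) and 1 a negative-change one (2.7%). Among all genes at a mean of 100 or more these shares were 8.29% and 8.95%. Usp28 had 1.37, Usp36 1.05, Usp22 0.978 and Usp3 0.887. The Usp22 peak was hardly enriched over input, at 1.2. Of 25 cholesterol genes 4 had a positive-change peak (16%) and 1 a negative-change one (4%). The positive ones included Srebf2 at 1.11 and the synthetic enzymes Hsd17b7 at 0.979 and Lss at 0.829. The input RNA of these 3 fell in the authors' deposited table, from -0.68 ± 0.08 (SE) for Lss to -0.28 ± 0.07 for Srebf2. It fell for 21 of the 25 genes, against 15.5% of all tested genes.

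The lists of sympathoadrenal, immediate early and nuclear factor I genes hold transcription factors. Of 16 sympathoadrenal factors 4 had a negative-change peak (25%) and 1 a positive-change one (6.25%). The negative ones included Phox2a at -3.78, Tbx2 at -1.19 and Hand2 with -0.889 and -0.848, and Sox11 had 0.916. Of 25 immediate early and Myc genes 5 had a negative-change peak (20%) and 0 a positive-change one. Among all genes at a mean of 100 or more these shares were 8.95% and 8.29%. Jund had -1.54, Junb -1.21 in a peak over nearly the whole gene, Myc -0.931 and Ier5 -0.512. Nfic, of the nuclear factor I family, had -1.42 from a RefSeq start inside the gene and -0.779 farther on, while its input RNA rose by 1.39 ± 0.08 (SE, adjusted p = 4.76e-70, DESeq2). The signs of its peaks and of its RNA differed as deposited. Because the numerator of a peak's change is not stated, whether peaks and RNA moved in the same direction cannot be told.

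Signalling lists held both signs. In the Wnt list Ctnnb1 and the coactivator Bcl9l, at -1.06, were negative, and 4 genes were positive, among them the receptor Fzd3 at 0.935 and Apc, a scaffold of the beta-catenin destruction complex, at 0.833. Of the 30 genes of the MAPK and receptor tyrosine kinase list 5 had negative and 6 positive changes (16.7% and 20%). Among all genes at a mean of 100 or more these shares were 8.95% and 8.29%. The receptor Fgfr1 had -2.19 near its start, and the downstream kinases Araf and Braf had 1.48 and 1.3, far from theirs. In the insulin and mTOR list the translation repressor Eif4ebp1 had -2.55 at 89 bases, with an input change of -1.74 ± 0.07 (SE), the adaptor Irs2 had -1.15 and the mTOR inhibitor Tsc1 had 1.25 in the authors' deposited table. In the cell cycle list Ccnd1, which encodes cyclin D1, had -1.52 at its start. Rbl1, a retinoblastoma relative, had 2.65 at an enrichment of 1.38, and the transcription factors E2f1 and E2f7 had 1.69 and 1.22. 

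In the TGF-beta list the corepressor Ski and the ligand Tgfb1 had -1.52 and -1.39, and Smad5 had 1.12 and 0.46. Of 18 measured Hippo genes 0 had a peak. Among all genes at a mean of 100 or more 8.95% had a negative-change and 8.29% a positive-change peak. With so few Hippo genes, their lack of peaks was not read as a feature of the list. In the Notch list the ligand Jag2 had -1.15 and the coactivators Maml1 and Maml3 had 0.719 and -0.602. Of 35 decay genes 5 had negative (14.3%) and 3 positive changes (8.57%), the latter near the share over all genes. They included Cnot10, a subunit of the CCR4-NOT deadenylase, at -1.18. Pan2, the catalytic subunit of another deadenylase, had 0.983 within 50 bases of its start. Of 26 neurite and adhesion genes 5 had negative changes (19.2%) and 1 positive ones (3.85%). Dpysl3, a regulator of growth cones, had -1.34 after Itgb1, and Nrp1, a semaphorin receptor, had 0.887.

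**Figure D5:**
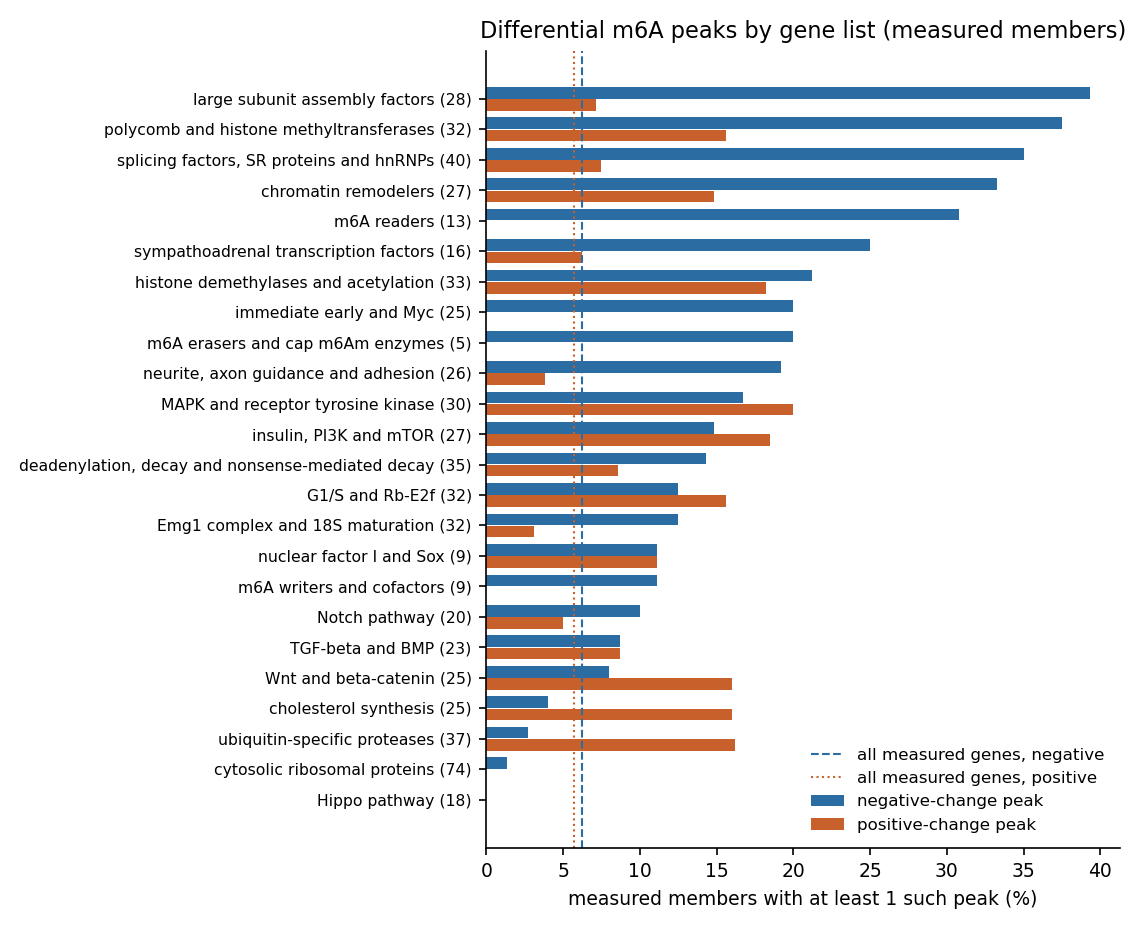
Share of the measured members of each of 24 gene lists (vertical axis, number measured in brackets) with at least 1 negative-change peak (blue bars) or positive-change peak (orange bars), in percent. The dashed and dotted lines are the shares of all measured genes, 6.25% and 5.69%. The nearer comparison, genes at a mean of 100 or more, is not drawn and has 8.95% and 8.29%. Large subunit assembly factors have the highest negative share, 39.3%, and Hippo genes have neither kind of peak.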

How the data were processed

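Poly(A) RNA was precipitated with an m6A enrichment kit, and stranded libraries were sequenced single-end, per the labels' protocols. The tools named are Trimmomatic, HISAT2 and DESeq2, and the build is mm10, per the submitters' processing notes. Not given in the sources used here are the counter, annotation, peak caller, versions and any pooling of replicates. The authors' deposited peak list gives the enrichment as a fold (ratio), the change as log2, and log10 values of a p-value and an FDR, per the file headers. The score column of the list holds values the authors deposited and was not used. The authors' deposited input table gives a mean normalized count (a signal), a log2 fold change with SE, a Wald statistic (a score), p-values and adjusted p-values. The sign of Emg1 sets input changes as knockdown over control.

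Neither table holds values per library, so the depth is unknown and no model was refitted. Edges were placed on RefSeq gene spans and starts (Python 3.11.15, pandas 2.3.3, scipy 1.17.1, numpy 2.4.6, matplotlib 3.10.9); 83 names were matched through older symbols, 5 peaks were not placed, and 426 had no start to compare. Placement was checked on simulated peaks. No genome or exon annotation was used. The members and lists were chosen with earlier results of these data known. Named peaks were the 10 smallest p, the 10 largest changes at or above the median enrichment (5.525) and the 5 smallest changes of each sign, genes with 3 or more peaks, the 10 widest gaps between signs, up to 4 members per list, Emg1, and 5 per sign with an absolute input change under 0.1. Start sequences were those of the lowest and highest changes within 50 bases of a start. Alternatives were stricter FDR, enrichment, change and input thresholds, other windows, midpoints, merging within 1000 bases, and other motifs.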

Additional observations from a re-analysis of the deposited data

How the results depend on the processing

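No paired analysis was possible because neither table holds values per library; for the same reason no library could be left out. Of 114 alternatives over 19 results, 71 stayed within the interval of the reported value, 42 moved and 1 turned the majority sign. The settings for start peaks and for genes with both signs were chosen after seeing the data. The share of negative changes, 53.1%, turned to a minority of 49.8% at an enrichment of at least 2, and was 55.6% at an FDR under 0.001 and 57.4% at an absolute change of at least 1. Negative-change peaks within 500 bases of the gene start became 54.2% at an absolute change of at least 1, 31.5% and 41% with windows of 250 and 1000 bases, and 8.48% by midpoint. At the gene end they became 9.58%, 13.1%, 27.6% and 7.05% in that order. Positive-change peaks at the start became 3.21% at an absolute change of at least 1, 8.49% with 1000 bases and 0.404% by midpoint; at the end they became 16.6% and 34.8% with 250 and 1000 bases and 13.4% by midpoint. The median RNA length of negative-change peaks, 420 bases, became 510, 298 and 1835 bases at an enrichment of at least 2, at a change of at least 1, and as genomic length. That of positive-change peaks, 510 bases, became 568, 300 and 688 bases in that order, and 565 bases at an FDR under 0.001. The median enrichment, 4.11 for negative and 8.61 for positive changes, became 5.42 and 9.84 at an enrichment of at least 2, and 3.51 and 3.58 at a change of at least 1, where the signs were close. Negative-change peaks on genes that rose became 33% at a change of at least 1, 33.6% at an input adjusted p under 0.01 and 8.75% at an input change of at least 0.5; on genes that fell they became 15.3%, 8.3% and 2.71%. Positive-change peaks on genes that rose became 10.1% and 1.21%, and on genes that fell 18.5% and 8.19%, under the last 2 settings. Listed genes with a negative-change peak, 16.5%, became 13.5% at an enrichment of at least 2. Windows with GGACT were 5.42%, and with GGAC on either strand 34.6%. At a change of at least 1, start peaks were 96.4% negative, and the negative peak was upstream in 100% of the 4 genes left with both signs. These shifts follow from fewer peaks or other definitions where those changed, and otherwise the cause was not tested. Without counts per library the depth behind each peak is unknown.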

Other observations

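The 2114 peaks included a small group outside protein-coding genes, by the RefSeq gene type: 14 on long noncoding RNAs, 8 of them negative, and 6 on transcribed pseudogenes, 2 of them negative. Malat1, an abundant nuclear RNA, had -0.431 at an enrichment of 11.6 in the authors' deposited table, and the small nucleolar RNA host gene Snhg7 had 0.813 at 1.38. Gm3716 had 1.64. Tubb2a-ps2 had -3.62 and Rps19-ps3 had 2.05; reads of such copies may come from the parent genes, so these values are uncertain. The peaks of Urgcp, at -4.24, and of 2210015D19Rik, at -3.45, lie on opposite strands of 1 place at the starts of both genes, and both belonged to the 4 lowest changes at or above the median enrichment. These genes were chosen after their values were seen.

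The protocadherin alpha cluster was the largest case of a place deposited under several names. Its 14 peaks, on Pcdha and Pcdhac genes that splice variable first exons to shared constant exons, had changes from -0.625 to -0.239 and shared bases, so they are counted 14 times in the list and are 1 place. Hjurp and A730008H23Rik shared 1576 bases, with -0.102 and -0.117, and 113 bases in another peak, with -1.1 and -1.57. Moap1 and Gm20604 shared 1209 bases, with 0.539 and 0.56 in the authors' deposited table. Cbx6, a polycomb subunit, had -0.701 over a peak that shared 180 bases with a peak of Npcd at -1.94. All 102 overlapping pairs had 1 sign, but they fall into 12 places and most are pairs within the protocadherin cluster. Peaks that share bases are not separate observations.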
